A study of Mus musculus with 12 samples.

Results

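The genes described are 10 cell-surface genes of the mouse heart, 7 that mark blood vessel endothelium (Pecam1, Cdh5, Kdr, Flt1, Tek, Tie1 and Emcn) and 3 of the Ly6 family (Ly6a, Ly6c1 and Ly6e). They were taken by gene name from the 56748 genes of the deposited table, where each name has 1 row. RNA from whole hearts was sequenced 1 day (P1) and 21 days (P21) after birth, in wild-type mice and in mice labelled Csrp3 ko, with 3 libraries in each of the 4 groups. Csrp3 is the gene of muscle LIM protein, which sits at the Z disc of heart muscle. The labels give no strain, sex, allele or litter, and they do not say that the 3 libraries of a group came from separate animals, so p-values measure the spread between these libraries, which may be partly technical. Levels are FPKM (sequenced fragments per kilobase of gene, divided by a total for each library), so they can be compared between genes per length. That total was not the plain number of reads in genes, as described with the processing. All 10 genes were among the 13537 tested, which had at least 1 FPKM in at least 3 libraries.

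Endothelial cells line every vessel and are held together by junction proteins, among them Pecam1 (CD31) and Cdh5 (VE-cadherin). Their growth and stability are set largely by the VEGF receptors Kdr and Flt1 and by the angiopoietin receptor Tek with its relative Tie1, while Emcn (endomucin) is a mucin-like protein of capillary and venous endothelium. Ly6 proteins are small and are tethered to the outer membrane by a lipid anchor: Ly6a, also called Sca-1, and Ly6c1 are found on mouse endothelial and blood cells, and Ly6e is widely expressed and induced by interferon. In the weeks after birth the capillary bed of the mouse heart expands and the heart muscle turns to fatty acids as fuel.

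The start regions of 4 of these genes are printed because they set members that rose from P1 to P21 in wild type (Ly6c1, Emcn and Flt1) beside one that did not pass the test (Tie1). RefSeq promoter windows (GRCm38.p6, 250 bases before to 50 bases after the annotated start) matched 6 of the 10 genes by symbol; Pecam1, Cdh5, Ly6a and Ly6e were not matched. Each window runs 5′ to 3′ on the gene's strand, and capitals mark the ETS letters AGGAAG, on either strand, and the TATA box letters TATAAA. The Ly6c1 window is chr15:75048788-75049087 (minus strand), the Emcn window chr3:137340828-137341127 (plus strand), the Flt1 window chr5:147725962-147726261 (minus strand) and the Tie1 window chr4:118489800-118490099 (minus strand).
Ly6c1: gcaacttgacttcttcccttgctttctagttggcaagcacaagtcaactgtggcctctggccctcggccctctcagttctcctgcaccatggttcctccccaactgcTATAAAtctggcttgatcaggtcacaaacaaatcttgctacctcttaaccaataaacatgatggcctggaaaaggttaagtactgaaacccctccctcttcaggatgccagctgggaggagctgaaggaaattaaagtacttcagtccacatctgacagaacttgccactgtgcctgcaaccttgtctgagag
Emcn: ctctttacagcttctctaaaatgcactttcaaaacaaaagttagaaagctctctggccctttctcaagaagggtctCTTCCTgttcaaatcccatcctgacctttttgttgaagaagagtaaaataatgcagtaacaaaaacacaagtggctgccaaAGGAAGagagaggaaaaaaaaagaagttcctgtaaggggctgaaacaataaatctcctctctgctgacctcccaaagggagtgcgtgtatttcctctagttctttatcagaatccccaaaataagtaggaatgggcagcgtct
Flt1: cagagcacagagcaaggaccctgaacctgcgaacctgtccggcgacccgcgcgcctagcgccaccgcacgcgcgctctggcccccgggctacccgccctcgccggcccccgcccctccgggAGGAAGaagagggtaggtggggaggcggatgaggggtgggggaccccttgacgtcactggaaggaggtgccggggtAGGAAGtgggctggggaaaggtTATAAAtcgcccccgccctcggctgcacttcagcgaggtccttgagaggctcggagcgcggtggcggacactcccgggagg
Tie1: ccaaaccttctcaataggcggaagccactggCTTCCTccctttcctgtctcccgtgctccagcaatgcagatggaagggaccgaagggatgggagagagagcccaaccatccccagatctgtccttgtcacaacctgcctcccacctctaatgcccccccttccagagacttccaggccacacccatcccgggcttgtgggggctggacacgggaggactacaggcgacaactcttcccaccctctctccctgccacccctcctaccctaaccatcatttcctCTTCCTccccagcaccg
The ETS letters AGGAAG stood in the Emcn, Flt1 and Tie1 windows, with 2 matches in each, and occur in 35.4% of all 32851 windows of this length. The shorter core GGAA, which also stands in the printed Ly6c1 window, was not counted. TATAAA stood at position -31 from the start in Flt1 and at position -143 in Ly6c1, against 13.6% of all windows. A second RefSeq start of Ly6c1, not printed, had 3 ETS matches, of which a pair overlap, and no TATAAA. The core of the interferon-stimulated response element, ISRE (3.44% of all windows), and the GAS element TTCNNNGAA (8.30%) were in none of the 7 windows matched to the 6 genes. The GATA letters AGATAA (11.2%) were found in the Tek window alone, and the Kdr window held none of the 5 motifs as spelled here. A match is only a match of letters, and its absence says only that these letters are not in this window.

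Reads in genes numbered 9.67 to 15.9 M (megareads) per library, and the heart muscle markers were the highest of the cell type lists in every group at P1 and P21 (summed FPKM 13584 to 57942). Csrp3 RNA was present in all 6 libraries labelled knockout, with 4067 reads or more, and its log2 difference from wild type was -0.58 (SE 0.37, limma adjusted p = 1) at P1 and -0.10 (SE 0.37, limma adjusted p = 0.920) at P21. At P1 Csrp3 was lower in every knockout library (94.3 to 168 FPKM) than in any wild-type one (179 to 238 FPKM). Of all tested genes, 3.44% were lower without overlap there. At P21 the genotypes overlapped (671 to 1112 FPKM in knockout, 572 to 1397 in wild type). The allele is not given, so knockout is used here as a label, and whether the allele leaves RNA was not tested. Wild-type P21 libraries 1 and 2, whose library names end in R, had the fewest genes above 0. They had 17344 and 15811, against 18348 to 22353 in the other libraries. These 2 also had the fewest reads in genes (10.2 and 9.67 M). Knockout P21 library 2 came next, with 10.8 M reads and 18348 genes. In whole hearts, fewer cells of a type and less RNA per cell cannot be told apart.

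At P1 Cdh5, Tie1, Pecam1 and Tek led the order in both genotypes, and the VEGF receptor Flt1 was the lowest of the 10. In wild type at P1, Cdh5 was the highest of the 10 (65.1 ± 12.4 FPKM, SD, n = 3), and its range did not overlap that of the next gene, Tie1 (37.6 ± 1.79). Tie1 and Pecam1 (36.7 ± 1.25) did not differ beyond their spread, and Tek (21.8 ± 1.54) lay below both and above Kdr without overlap. Kdr (17.9 ± 2.88), Ly6e (16.6 ± 1.42) and Ly6c1 (14.1 ± 4.15) each overlapped with their neighbour in the order. Emcn (8.37 ± 1.58), Ly6a (5.51 ± 1.85) and Flt1 (4.92 ± 0.792) closed the list, again with overlap between neighbours. In knockout at P1 the order was much alike, with Cdh5 first (56.3 ± 14.2), then Tie1 (33.7 ± 5.88), Pecam1 (31.4 ± 2.47) and Tek (19.9 ± 0.558). Ly6e, Ly6c1 and Kdr followed with overlap (16.2, 16.01 and 14.99 FPKM), and Emcn, Ly6a and Flt1 came last (9.39, 7.49 and 4.36 FPKM). By P21 the order had turned: in wild type Ly6c1 (499.7 ± 372) and Ly6a (348 ± 224) stood first and overlapped each other, followed by Ly6e (99.8 ± 34.4), and the 7 endothelial genes lay between 13.8 FPKM (Flt1) and 57.1 FPKM (Cdh5), each overlapping its neighbour. In the libraries labelled knockout, Ly6c1 (148 ± 39.9) and Ly6a (118 ± 38.1) also stood first at P21, and Ly6e (54.8 ± 3.29) overlapped with Cdh5 (58.7 ± 16.7). Tie1, Pecam1 and Kdr followed with overlap between neighbours (33.6, 32.2 and 24.3 FPKM). Tek (17.9 FPKM) lay below Kdr and above Emcn (11.3 FPKM) without overlap, and Emcn overlapped with Flt1 (11.1 FPKM).

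**Figure D1:**
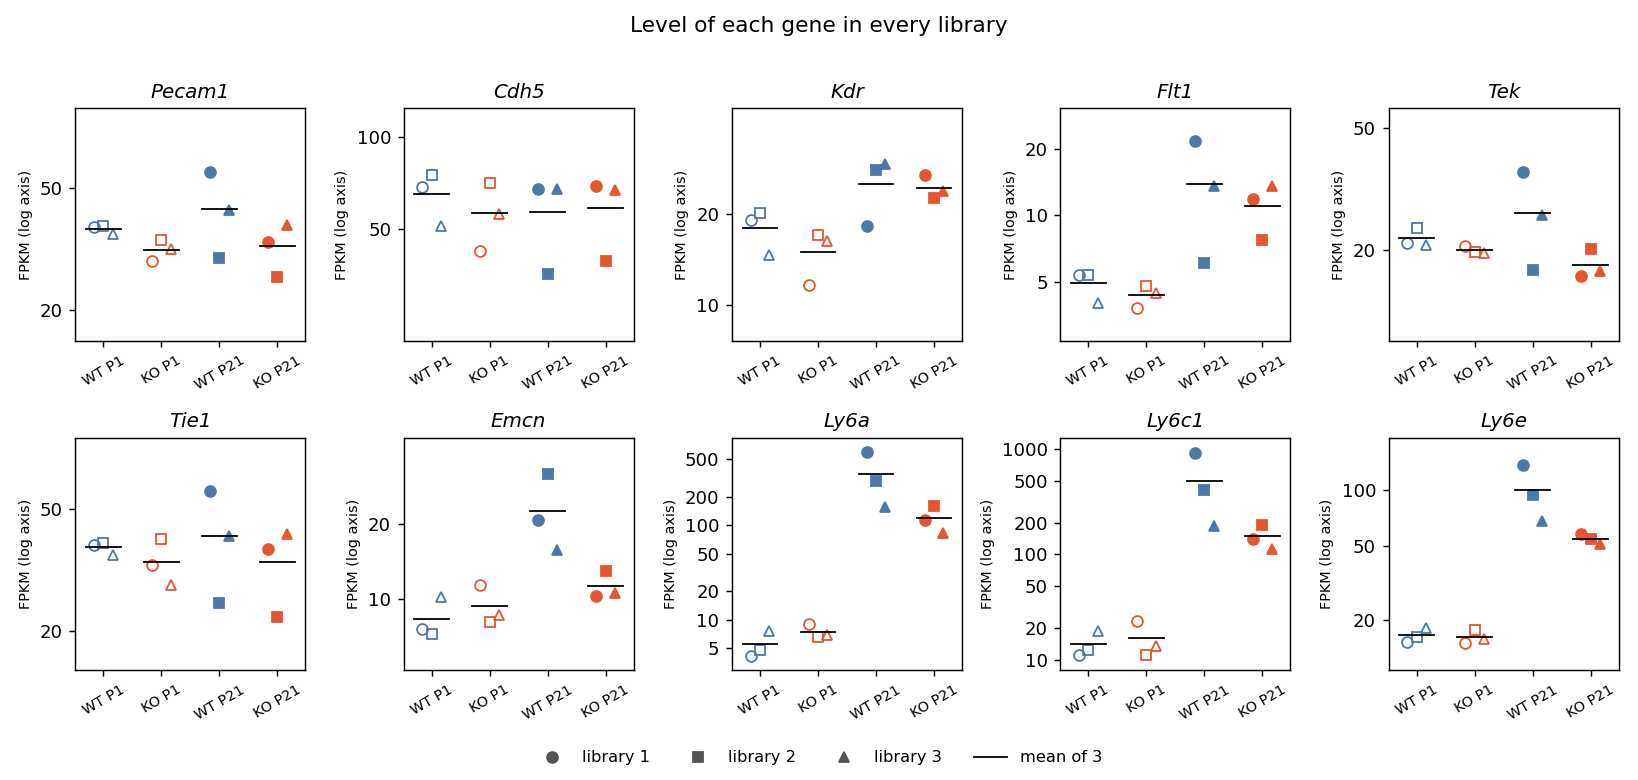
FPKM of each of the 10 genes (log axis) in the 12 libraries, by group; blue is wild type (WT), red is labelled knockout (KO), open symbols are P1, filled symbols P21, the symbol shape gives the library number and the line is the mean of 3. Ly6a, Ly6c1 and Ly6e stand far higher at P21 than at P1 in both genotypes, while Pecam1, Cdh5, Tek and Tie1 overlap between the ages within each genotype.

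The comparison of P21 with P1 asks how the genes change as the heart matures. The 3 Ly6 genes rose in both genotypes and Flt1 rose in both, Emcn passed the test in wild type and Kdr in the libraries labelled knockout, and Pecam1, Cdh5, Tek and Tie1 passed it in neither. In wild type 5 of the 10 genes were called higher and 0 lower, where 21.5% of all tested genes were called higher and 23.3% lower. In knockout 5 of 10 were also called higher and 0 lower, where 11.8% of all tested genes were called higher and 13.2% lower. The same genes were also higher at P21 without overlap between the ages, 5 of 10 in each genotype, where 24.4% of all genes were in wild type and 22.6% in knockout. Calls are limma adjusted p-values under 0.05 over all 13537 genes, on log2(FPKM + 0.5). The median log2 change of the 10 genes was 0.85 in wild type and 0.48 in knockout, against -0.04 and -0.02 over all tested genes. Without wild-type P21 libraries 1 and 2, which leaves 1 library assumed to vary like the others, 5 of 10 were again called higher in wild type, where 10.7% of all genes were.

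Ly6a showed the largest change of the 10. It stood at 4.12, 4.81 and 7.61 FPKM in the wild-type P1 libraries and at 594, 295 and 156 FPKM in the wild-type P21 libraries. In knockout it stood at 9.01, 6.53 and 6.94 FPKM at P1 and at 114, 158 and 82.4 FPKM at P21. The lowest P21 library therefore lay far above the highest P1 library in each genotype, with 92 to 175 reads per library at P1 and 1233 to 5543 at P21. The log2 change was 5.69 (SE 0.42, limma adjusted p = 6.8e-06) in wild type, which was the third largest increase of all 13537 genes. In knockout the log2 change was 3.86 (SE 0.42, limma adjusted p = 1.1e-04), the 19th largest.

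Ly6c1 followed the same course from a higher level at P1. Its wild-type libraries held 11.2, 12.3 and 18.9 FPKM at P1 and 910.0, 404 and 185 FPKM at P21. Libraries labelled knockout held 23.3, 11.2 and 13.5 FPKM at P1 and 139, 192 and 113 FPKM at P21. All 6 P21 libraries exceeded all 6 P1 libraries, and library 1 of wild type was again the highest. The log2 change was 4.84 (SE 0.49, limma adjusted p = 5.6e-05) in wild type and 3.20 (SE 0.49, limma adjusted p = 9.9e-04) in knockout, ranks 8 and 50 among all genes.

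Ly6e moved less but with a narrower spread. In wild type it was 15.4, 16.3 and 18.2 FPKM at P1 and 136, 94.7 and 68.3 FPKM at P21. In knockout it was 15.1, 17.8 and 15.8 FPKM at P1 and 58.3, 54.4 and 51.7 FPKM at P21. The P21 knockout libraries thus lay close together and below every wild-type P21 library. The log2 change was 2.50 (SE 0.22, limma adjusted p = 2.5e-05) in wild type and 1.73 (SE 0.22, limma adjusted p = 3.6e-04) in knockout. All 3 Ly6 genes kept their age call in 24 of 24 alternative analyses in both genotypes.

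Emcn, the endomucin gene, was 7.62, 7.29 and 10.2 FPKM at P1 and 20.6, 31.5 and 15.7 FPKM at P21 in wild type. In knockout it was 11.4, 8.14 and 8.62 FPKM at P1 and 10.4, 12.98 and 10.6 FPKM at P21. The ages did not overlap in wild type and did overlap in knockout. Its log2 change was 1.34 (SE 0.25, limma adjusted p = 0.00149) in wild type and 0.26 (SE 0.25, limma adjusted p = 0.476) in knockout.

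Flt1, the VEGF receptor that also binds VEGF-B and placental growth factor, was 5.39, 5.38 and 4.01 FPKM at P1 and 21.8, 6.05 and 13.6 FPKM at P21 in wild type. In knockout it was 3.79, 4.81 and 4.47 FPKM at P1 and 11.9, 7.76 and 13.6 FPKM at P21. The ages did not overlap, though wild-type P21 library 2 came close to the P1 range. The log2 change was 1.24 (SE 0.36, limma adjusted p = 0.0170) in wild type and 1.22 (SE 0.36, limma adjusted p = 0.0306) in knockout. The wild-type call was lost without P21 library 1 (0.84, limma adjusted p = 0.0584) or without P1 library 3 (1.11, limma adjusted p = 0.0560), and the knockout call without any 1 of 5 of the 6 knockout libraries, the exception being P21 library 2 (limma adjusted p = 0.0672 to 0.0931). Kdr, the main signalling receptor for VEGF-A, was 19.0, 20.1 and 14.7 FPKM at P1 and 18.2, 27.7 and 29.0 FPKM at P21 in wild type, where library 1 stayed within the P1 range. In knockout Kdr was 11.7, 17.0 and 16.3 FPKM at P1 and 26.7, 22.5 and 23.7 FPKM at P21, with no overlap. Its log2 change was 0.45 (SE 0.22, limma adjusted p = 0.113) in wild type and 0.69 (SE 0.22, limma adjusted p = 0.0383) in knockout. Without P21 library 1 Kdr was called in wild type too (0.66, limma adjusted p = 0.0269), and its knockout call was lost without any 1 of the 6 knockout libraries (limma adjusted p = 0.0574 to 0.141) or without wild-type P1 library 1 or 2 (limma adjusted p = 0.0557 and 0.0536). The ratio of Kdr to Flt1 within a library, which no scaling touches, was 3.09 to 3.74 in the 6 P1 libraries, 0.837, 4.58 and 2.13 in wild type at P21, and 1.75 to 2.89 in knockout at P21.

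The junction genes and the angiopoietin receptors, Tek and Tie1, did not pass the test with age. Pecam1 was 35.2 to 37.4 FPKM in wild type and 28.8 to 33.7 FPKM in knockout at P1. At P21 it was 56.5, 29.6 and 42.4 FPKM in wild type and 33.4, 25.5 and 37.7 FPKM in knockout. The wild-type P21 libraries thus lay on both sides of the P1 range, and the log2 change was 0.17 (95% interval -0.33 to 0.68) in wild type and 0.02 (-0.48 to 0.53) in knockout. Cdh5 was 68.7, 75.3 and 51.3 FPKM in wild type and 42.4, 70.7 and 55.9 FPKM in knockout at P1. At P21 it was 67.9, 35.7 and 67.7 FPKM in wild type and 69.4, 39.4 and 67.3 FPKM in knockout. Library 2 was the lowest of its group at P21 in both genotypes, and the log2 change of Cdh5 was -0.23 (-0.93 to 0.47) in wild type and 0.05 (-0.66 to 0.75) in knockout. Gm29682, a noncoding gene that overlaps Cdh5 on the opposite strand, had at most 3 reads in any library.

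Tek, the receptor of the angiopoietins, was 21.1, 23.5 and 20.7 FPKM in wild type and 20.5, 19.6 and 19.6 FPKM in knockout at P1. At P21 it was 35.8, 17.2 and 26.0 FPKM in wild type and 16.3, 20.2 and 17.1 FPKM in knockout. Its log2 change was 0.21 (95% interval -0.28 to 0.70) in wild type and -0.16 (-0.65 to 0.33) in knockout. The ages overlapped in both genotypes, and Tek was called higher in wild type without P21 library 2 (0.48, limma adjusted p = 0.0487). Tie1 was 38.3, 38.9 and 35.5 FPKM in wild type and 32.9, 39.9 and 28.2 FPKM in knockout at P1. At P21 it was 57.5, 24.6 and 40.9 FPKM in wild type and 37.1, 22.2 and 41.6 FPKM in knockout, again with library 2 the lowest in both genotypes. Its log2 change was 0.04 (-0.63 to 0.71) in wild type and -0.04 (-0.71 to 0.63) in knockout.

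**Figure D2:**
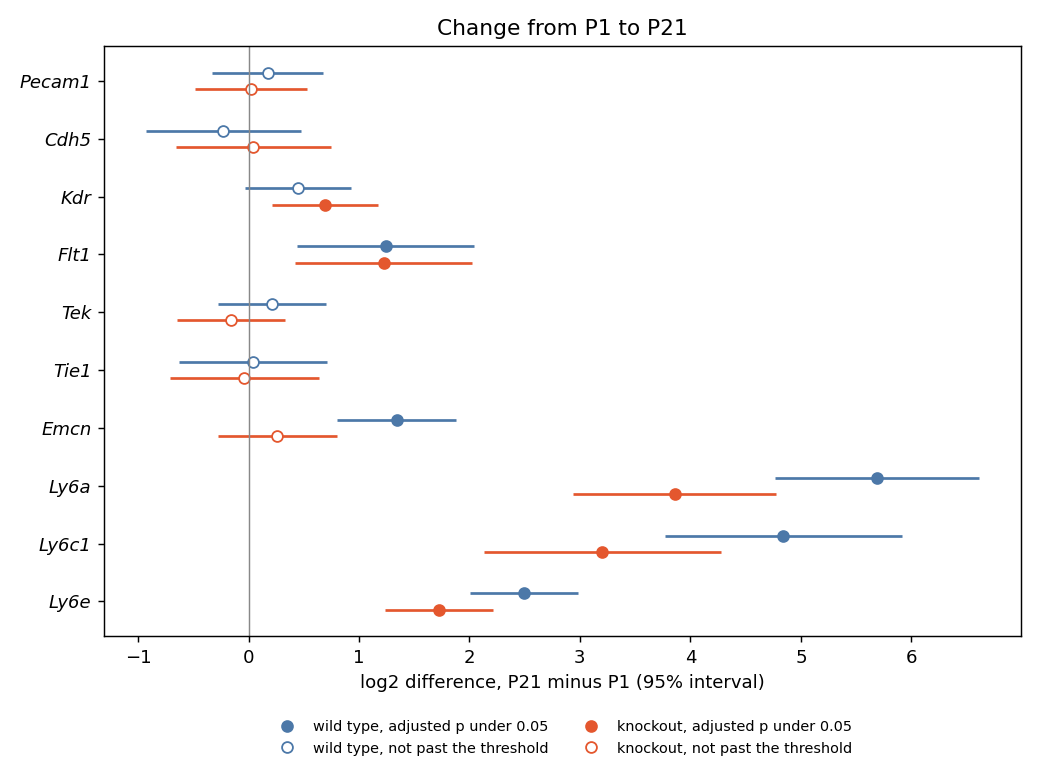
Log2 difference between P21 and P1 for each gene with its 95% interval, blue for wild type and red for labelled knockout, on the deposited FPKM scale; filled points are past an adjusted p of 0.05. The Ly6 genes lie at 1.73 or above, and Pecam1, Cdh5, Tek and Tie1 lie within 0.23 of 0 with open points; rescaled to TPM, these 4 turn or stay negative in both genotypes.

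The scale of the libraries mattered for the endothelial genes and not for the Ly6 calls. Rescaling recovered reads by the trimmed mean of M-values (TMM) changed little. It moved the median age change of all genes by -0.010 in wild type and 0.0053 in knockout (log2). The deposited scale was thus close to a TMM scale. The sum of FPKM per library was higher at P21, so that rescaling to TPM moved the median age change of all genes by -0.95 in wild type and -0.58 in knockout (log2). On that scale Pecam1 (-0.95), Cdh5 (-1.36), Tek (-0.90) and Tie1 (-1.08) were called lower in wild type, 4 of 10 where 62.2% of all tested genes were called lower and 5.67% higher. In knockout 0 of the 10 were called lower, where 38.1% of all genes were called lower and 4.69% higher. Flt1 (0.18, limma adjusted p = 0.740) and Emcn (0.24, limma adjusted p = 0.276) were then no longer called in wild type, nor were Flt1 (0.60, limma adjusted p = 0.310) and Kdr (0.04, limma adjusted p = 0.923) in knockout. Counted from the median of all genes, Pecam1, Tek and Tie1 lay within 0.25 of it in wild type as deposited, on the TPM scale, and with libraries rescaled to a total that leaves out mitochondrial genes and the 20 highest genes. Cdh5 lay below it on the same 3 scales, by -0.19, -0.38 and -0.27. On that last scale Emcn stayed called in wild type (0.86, limma adjusted p = 0.00435), and Flt1 was called in neither genotype (0.79, limma adjusted p = 0.146, and 0.96, limma adjusted p = 0.115), nor was Kdr in knockout (0.41, limma adjusted p = 0.236). Against the median of all genes, Flt1 lay 1.28 above that median as deposited and 1.17 above it on the TPM scale, Emcn 1.38 and 1.22 above it, and Ly6a 5.73 and 5.56 above it.

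Ratios within a library are free of this scaling. The ratio of Ly6a to Pecam1 was 0.110 to 0.216 in wild type and 0.194 to 0.313 in knockout at P1, and 3.67 to 10.5 in wild type and 2.19 to 6.20 in knockout at P21. For Ly6c1 it was 0.299 to 0.535 and 0.333 to 0.810 at P1, and 4.36 to 16.1 and 3.01 to 7.51 at P21, in the same order of genotypes. Ly6e per Pecam1 was 0.412 to 0.516 in wild type and at most 0.527 in knockout at P1, and 1.61 to 3.20 and 1.37 to 2.13 at P21. The ages did not overlap for any of these 3 ratios, whereas the genotypes overlapped at P21 for all 3. Flt1 per Pecam1 was also higher at P21, at 0.205 to 0.386 in wild type and 0.304 to 0.359 in knockout against 0.114 to 0.144 in the 6 P1 libraries. Emcn per Pecam1 was 0.195 to 0.289 in wild type at P1 and 0.365 to 1.07 at P21, and 0.241 to 0.397 and 0.280 to 0.508 in knockout, where the ages overlapped.

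**Figure D3:**
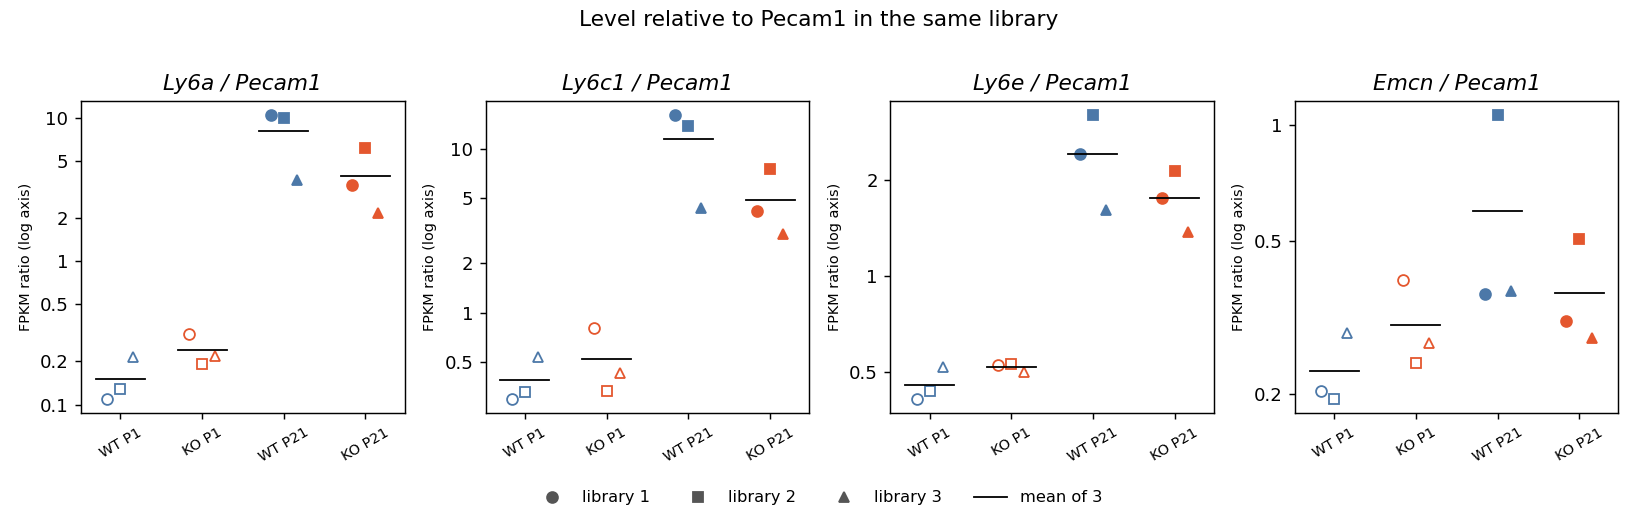
FPKM of Ly6a, Ly6c1, Ly6e and Emcn divided by that of Pecam1 in the same library (log axis), by group; blue is wild type (WT), red is labelled knockout (KO), open symbols P1, filled symbols P21, shapes give the library number and lines the mean of 3. All 6 P21 ratios of each Ly6 gene lie above all 6 P1 ratios, and the genotypes overlap at P21.

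The comparison of the libraries labelled knockout with wild type asks how hearts that carry this label differ at each age. At P1, 0 of the 10 genes passed the limma test, where 0% of all tested genes did, and voom on recovered reads also called 0. None of the 10 had an unadjusted p under 0.05, where 82 genes, or 0.606%, did. The fit shares 1 estimate of the spread over the 4 groups. Pecam1, for example, had an SD of 1.25 and 2.47 FPKM at P1 against 13.5 FPKM in wild type at P21. The test at P1 may therefore be too strict. With only the 2 P1 groups in the fit 431 genes had an unadjusted p under 0.05, and with library weights 997 did. In these fits 0 of the 10 passed, where 1 and 3 of all tested genes did. The 10 log2 differences lay between -0.26 (Kdr) and 0.44 (Ly6a), each with an interval that spans 0. Pecam1 and Tek were lower in every knockout P1 library than in any wild-type one, by -0.22 and -0.12 on the log2 scale, where 3.44% of all genes were lower without overlap. On the TPM scale both overlapped.

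At P21, 9 of the 10 genes had a lower mean log2 level in the libraries labelled knockout. Emcn and the 3 Ly6 genes differed most, but 0 of the 10 genes passed the limma test, where 0.0665% of all tested genes did. Voom on recovered reads called 0 of the 10 too. The intervals use 1 spread shared by the 4 groups. Ly6a had an SD of 64.3% of its mean in wild type at P21 and of 17.8% to 33.5% in the other groups. The intervals at P21 may therefore be too narrow. With only the 2 P21 groups in the fit, 841 genes had an unadjusted p under 0.05, against 1863. Emcn was 22.6 ± 8.09 FPKM in wild type and 11.3 ± 1.46 FPKM in knockout (SD, n = 3), a log2 difference of -0.92 (95% interval -1.46 to -0.38, limma adjusted p = 0.177). Ly6a (348 ± 224 against 118 ± 38.1 FPKM) differed by -1.39 (-2.31 to -0.47, limma adjusted p = 0.229). For Ly6c1 (499.7 ± 372 against 148 ± 39.9 FPKM) the difference was -1.49 (-2.57 to -0.42, limma adjusted p = 0.257). Ly6e (99.8 ± 34.4 against 54.8 ± 3.29 FPKM) differed by -0.80 (-1.29 to -0.31, limma adjusted p = 0.190).

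Emcn and Ly6e were lower in every knockout P21 library than in any wild-type one, where 5.05% of all genes were lower without overlap, and Ly6a and Ly6c1 overlapped. This depended on scale: as TPM, Ly6e overlapped (100.2 to 199.7 in wild type and 83.9 to 116 in knockout). Emcn (29.8 to 33.4 and 19.2 to 23.7), Ly6a (295 to 869 and 185 to 244) and Ly6c1 (350.2 to 1331 and 255 to 295) were lower without overlap as TPM. The share of all genes lower without overlap was not counted on the TPM scale, so these TPM ranges have no background to be read against. The log2 differences on the TPM scale were -0.55 for Emcn (limma adjusted p = 0.237), -1.02 for Ly6a (limma adjusted p = 0.237), -1.12 for Ly6c1 (limma adjusted p = 0.255) and -0.43 for Ly6e (limma adjusted p = 0.366), where the median of all genes was 0.28. With Tek (-0.49, -0.99 to -0.0019), these 4 genes had an unadjusted p under 0.05, which makes 5 of 10 where 13.8% of all genes had one. Cdh5 (0.05, -0.65 to 0.76), Kdr (-0.02, -0.49 to 0.46) and Flt1 (-0.17, -0.97 to 0.63) lay closer to 0, as did Tie1 (-0.25, -0.92 to 0.42) and Pecam1 (-0.38, -0.88 to 0.13). The median log2 difference was -0.43 over the 10 genes and 0.00 over all tested genes.

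A single wild-type library decided the calls at P21. Without wild-type P21 library 3, which leaves the pair whose names end in R, Emcn (-1.15, limma adjusted p = 0.0138), Ly6a (-1.87, limma adjusted p = 0.0116), Ly6c1 (-2.07, limma adjusted p = 0.0126) and Ly6e (-1.05, limma adjusted p = 0.00906) were called lower, and so were 7.36% of all genes. Without libraries 1 and 2, and so with library 3 as the lone wild-type P21 library, the differences shrank to -0.47 for Emcn, -0.44 for Ly6a, -0.35 for Ly6c1 and -0.32 for Ly6e, and 0 of the 10 were called. The calls at P21 therefore depended on which wild-type libraries were used. Fibroblast markers moved with the same libraries: of 12, 9 had a higher mean log2 level in knockout at P21 and 0 were called, with a median log2 difference of 1.02, which was 0.12 without wild-type P21 libraries 1 and 2. Among them the matrix protein gene Postn was 7.39 ± 3.95 FPKM in wild type and 28.2 ± 14.5 FPKM in knockout (limma adjusted p = 0.146). Their summed FPKM overlapped, at 1125 to 1378 in wild type and 1032 to 1630.0 in knockout, none of the 12 was at 0, and their part in the result was not tested.

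**Figure D4:**
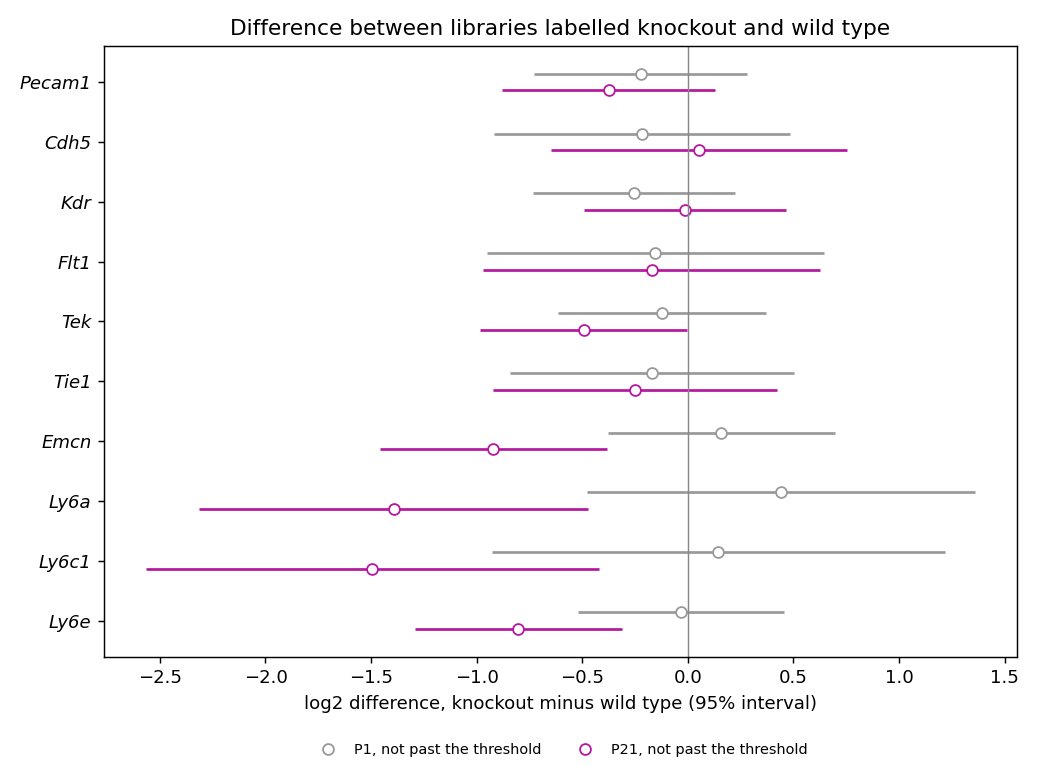
Log2 difference between libraries labelled knockout and wild type for each gene with its 95% interval, grey at P1 and purple at P21, on the deposited FPKM scale; open points are not past an adjusted p of 0.05. Emcn, Ly6a, Ly6c1 and Ly6e lie between -1.49 and -0.80 at P21 with intervals below 0. The intervals use 1 spread shared by the 4 groups, and may be too narrow at P21 and too wide at P1. At P21, Kdr, Flt1 and Tie1 turn positive when rescaled to TPM.

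The test of whether the genotype difference itself changed between P1 and P21 called 0 of the 10 genes, and 0% of all tested genes by limma, and voom also called 0. An unadjusted p under 0.05 was found for 4 of the 10, where 940 genes, or 6.94%, had one. The difference of differences was -1.08 (95% interval -1.84 to -0.32) for Emcn and -1.83 (-3.14 to -0.53) for Ly6a. It was -1.64 (-3.16 to -0.12) for Ly6c1 and -0.77 (-1.46 to -0.08) for Ly6e, each of the 4 with a limma adjusted p of 0.687. The smaller age change of Emcn in knockout was thus not shown to differ from that in wild type. Ly6a alone of the 10 was called (-2.31, limma adjusted p = 0.0410) when wild-type P21 library 3 was left out. In that fit 1.21% of all tested genes were called lower and 0.953% higher. Without libraries 1 and 2 the value for Ly6a was -0.89.

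Blood cell markers were set beside the Ly6 genes because leukocytes also carry Ly6 proteins. Among the wild-type P21 libraries, Ly6a, Ly6c1 and Ly6e were highest in library 1 and lowest in library 3. The summed FPKM of 14 leukocyte markers was 164, 433 and 181 in libraries 1 to 3, that of 10 platelet markers 18.2, 69.0 and 33.8, and that of 9 red cell markers 11651, 42942 and 10070, so each was highest in library 2, where none of the 3 was. The platelet gene Gp1bb was listed at 0 in every library, and Gp6 in every library labelled knockout. In knockout at P21 the leukocyte sum was 161, 299 and 194 and the platelet sum 25.3, 34.8 and 23.7, so both were highest in library 2, as were Ly6a and Ly6c1, while Ly6e and the red cell sum (7088 to 15000) were highest in library 1. With age, 5 of 10 tested leukocyte markers, 1 of 3 platelet markers and 5 of 6 red cell markers rose in wild type and 0 fell, where 21.5% of all tested genes were called higher and 23.3% lower. In knockout 4 leukocyte markers rose and 2 fell, 1 platelet marker rose and 1 fell, and 5 red cell markers rose and 0 fell, where the shares of all genes were 11.8% and 13.2%. The leukocyte sum was 44.0 to 77.6 in the 6 P1 libraries. The part of blood cells in the Ly6 results was not tested. The 19 capillary lipid-handling genes summed to 4091, 2084 and 1653 FPKM in wild type, in the same order as Ly6a, and to 1449 to 1641 FPKM in knockout.

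Ly6e, Ly6a and Ly6c1 lie in a single cluster on chromosome 15. In the table's coordinates Ly6e is at 74826900 to 74831752 on the plus strand, Ly6a at 74866726 to 74869880 on the minus strand and Ly6c1 at 74915867 to 74920679 on the minus strand. Between the start of Ly6e and the end of Ly6g the table lists 13 genes, and these 3 were the ones that passed the filter. The other 10 did not reach 1 FPKM in 3 libraries, and none of them exceeded 3.85 FPKM in any library. Ly6c2, the near copy of Ly6c1 known from monocytes, had 1 to 9 reads in 11 libraries and 67 reads in wild-type P21 library 1. Of the 50-base words in the Ly6c1 transcripts, 21.5% also occur in Ly6c2 and 11.1% in Ly6a, and 195 of the 1297 such words of Ly6a occur in Ly6c1, so reads from shared stretches could be split between these genes (transcripts of GENCODE M21). Ly6e shared 0% of its words with each of the 6 Ly6 genes compared. The part of shared reads in these values was not tested.

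Other genes of the Ly6 and uPAR family mostly stayed under the filter. Of 38 such genes beside the 3, 8 were tested, of which 4 rose and 0 fell with age in wild type and 3 rose and 0 fell in knockout, against 21.5% and 11.8% of all tested genes called higher. Without wild-type P21 libraries 1 and 2, 2 of the 8 rose in wild type, against 10.7% of all genes. Gpihbp1, which carries lipoprotein lipase to the capillary surface, was 13.2, 16.9 and 23.2 FPKM at P1 and 347, 120.3 and 54.5 FPKM at P21 in wild type, the same order of P21 libraries as for Ly6a. Its log2 change was 2.89 (SE 0.51, limma adjusted p = 0.00115) in wild type and 1.58 (SE 0.51, limma adjusted p = 0.0404) in knockout. Lynx1, a modulator of nicotinic acetylcholine receptors, rose by 4.16 (SE 0.37) in wild type and 4.25 (SE 0.37) in knockout and was 33.6 ± 13.4 and 36.2 ± 6.61 FPKM at P21. Cd59a, an inhibitor of complement, rose by 1.44 (SE 0.27) in wild type, and its change in knockout was 0.75 (SE 0.27, limma adjusted p = 0.0605). The other gene called in wild type was Ly6k, at 2.12 ± 0.726 FPKM at P21, and in knockout Cd59b, at 2.52 ± 0.804 FPKM. Both were under 1 FPKM in every P1 library and passed the filter through P21 libraries alone. The filter thus favoured a rise in these genes, and the counts above include them.

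Wider lists of genes with related functions were counted in the same fit, where 21.5% of all tested genes were called higher and 23.3% lower with age in wild type, and 11.8% and 13.2% in knockout. On the TPM scale, which shifts the age change of all genes downward, these shares were 5.67% and 62.2% in wild type and 4.69% and 38.1% in knockout, and a list's count on that scale is to be read against them. Of 18 tested capillary lipid-handling genes, 12 rose and 0 fell in wild type, and 7 rose and 0 fell in knockout, with median log2 changes of 1.75 and 0.96, against -0.04 and -0.02 over all tested genes. The water channel Aqp1 went from 45.9 ± 11.3 to 439 ± 242 FPKM in wild type and from 37.8 ± 4.57 to 210 ± 21.4 FPKM in knockout, and Lpl, lipoprotein lipase, from 77.4 ± 2.79 to 286 ± 102 and from 80.1 ± 9.07 to 222 ± 10.1 FPKM. Interferon-induced genes rose in 21 of 28 cases in wild type and 20 of 28 in knockout, with 0 fallen in each. Among them the immunoproteasome gene Psmb8 rose by 3.34 (SE 0.24) and 2.13 (SE 0.24), and the factor Irf1 by 2.52 (SE 0.21) and 1.98 (SE 0.21). Psmb8 averaged 0.53 FPKM in wild type and 0.60 FPKM in knockout at P1. It passed the filter through P21 libraries, which favoured a rise. The summed FPKM of the 34 interferon-induced genes was 823 to 1069 in wild type and 496 to 647 in knockout at P21, without overlap, but as TPM it was 1131 to 1627 and 919 to 1194, with overlap. Of the 28 tested, 0 were called between genotypes. On the TPM scale 7 capillary lipid genes rose and 4 fell in wild type, and 11 interferon genes rose and 1 fell. Without wild-type P21 libraries 1 and 2, 9 capillary lipid genes and 21 interferon genes rose in wild type and 0 fell.

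Of 37 other endothelial junction and surface genes tested, 17 rose and 6 fell in wild type and 12 rose and 6 fell in knockout. On the TPM scale 3 rose and 13 fell in wild type and 4 rose and 10 fell in knockout, the falls being 13 of 37 where 62.2% of all genes fell and 10 of 37 where 38.1% did. Without wild-type P21 libraries 1 and 2, 13 rose and 4 fell in wild type. Thbd, the anticoagulant thrombomodulin, rose by 2.00 (SE 0.15) in wild type and 1.72 (SE 0.15) in knockout, and Tspan18 fell by 2.13 (SE 0.24) and 1.82 (SE 0.24). Of 19 ligands and partners of the VEGF and angiopoietin receptors, 6 rose and 2 fell in wild type and 5 rose and 1 fell in knockout, and on the TPM scale 3 rose and 10 fell in wild type and 4 rose and 4 fell in knockout. Vegfb, a ligand of Flt1, went from 70.8 ± 1.75 to 236 ± 75.5 FPKM in wild type and from 86.8 ± 5.72 to 216 ± 27.3 FPKM in knockout. Ptprb, the phosphatase of the Tek receptor, rose by 1.59 (SE 0.20) and 1.61 (SE 0.20). Of 25 endothelial transcription factors 10 rose and 3 fell in wild type and 6 rose and 0 fell in knockout, and on the TPM scale 3 rose and 13 fell in wild type and 2 rose and 5 fell in knockout. In wild type Sox18, a factor of vessel development, rose by 2.13 (SE 0.26) and the lymphatic factor Prox1 fell by 1.46 (SE 0.20). Of 20 arterial and Notch genes 10 rose and 4 fell in wild type and 9 rose and 3 fell in knockout, and on the TPM scale 1 rose and 8 fell in wild type and 2 rose and 5 fell in knockout. In wild type the ligand Dll4 rose by 1.68 (SE 0.21) and the gap junction gene Gja5 fell by 2.66 (SE 0.30). Of 15 venous, lymphatic and endocardial genes 1 rose and 5 fell in wild type and 1 rose and 3 fell in knockout, and on the TPM scale 0 rose and 11 fell in wild type and 0 rose and 8 fell in knockout. Between genotypes, 0 genes of these lists passed the test at P1 or at P21.

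The 10 genes did not move as 1 group. Over the 12 libraries, corrected for the group means, the log2 values of the 3 Ly6 genes were correlated pairwise at 0.783 to 0.970, while the 21 pairs of endothelial genes ranged from -0.901 to 0.980. Pecam1, Cdh5, Flt1 and Tie1 were correlated with each other at 0.839 to 0.980, and every negative endothelial pair involved Emcn or Kdr. These are descriptions over libraries that share depth and scale. The highest endothelial pair was Pecam1 with Flt1 and the lowest Cdh5 with Emcn. The correlations that follow were not corrected for the group means, so they also carry the change with age that many genes share. The tested genes most like the mean profile of the 7 endothelial genes over the 12 libraries were Csrnp2 (Pearson r = 0.932), Mylk (0.932), Git2 (0.929), Unc45bos (0.926) and Fgd5 (0.926). Most like Ly6a were Rasgrf2 (0.990), Cyp4b1 (0.990), Lrg1 (0.990), Saraf (0.989) and Srgn (0.989). Lrg1 (0.992) was also the nearest to Ly6c1, and Rasgrf2 (0.995) the nearest to Ly6e. Lrg1 itself was 1.68 FPKM in wild type and 2.20 in knockout at P1 and 37.6 and 15.3 FPKM at P21. Over the 6 P21 libraries alone, the nearest genes were Gm16364 (0.993) for the endothelial mean, Acy1 (0.999) for Ly6a, Mustn1 (0.996) for Ly6c1 and Lrrc8a (0.997) for Ly6e. Each is the highest value over all tested genes outside the 10 and rests on 6 libraries, so it does not mark a specific partner.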

How the data were processed

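The authors deposited 1 table of FPKM values for 12 libraries. Total RNA came from the miRNeasy micro kit and was made into libraries with the Ovation Ultralow V2 Kit, per the labels. FastQC, TopHat2 2.0.13, Subread, featureCounts and edgeR are named in the submitters' processing notes, with 3 genome builds and no roles, and the use of strand in counting and the table's build are not given in the sources used here: 0 of the 10 genes share a start with GENCODE M21 (GRCm38), so its positions are printed as they stand and not mixed with the RefSeq windows.

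Groups came from the sample titles, and columns were matched by library name. FPKM times gene length came in whole steps (tolerance 0.05 of a step) for 100% of nonzero values, and the steps gave the reads in genes. They also gave the total by which each library had been divided. It was 1.14 to 1.17 times the reads in genes at P1 and 0.605 to 0.944 times at P21. The 13537 genes that reached 1 FPKM in 3 or more libraries were fitted with limma 3.58.1 (R 4.3.3), 1 mean per group over 12 libraries, on log2(FPKM + 0.5), with trend and robust moderation and Benjamini-Hochberg adjustment over all tested genes. A fold change on that scale understates the change of low genes. The 10 genes, the lists and the naming rule (the 10 genes, up to 4 list genes with the smallest adjusted p per comparison and the 5 most similar genes) were chosen with earlier results of these data known, and Bambi, listed by mistake, was taken out of the Ly6 and uPAR list after values were seen. Alternatives were 2 pseudocounts, no filter, 3 scalings, a replicate block, other model options, leaving out libraries and, chosen after seeing the data, voom on the recovered reads. The fit was tested on simulated data, and figures were drawn with matplotlib 3.10.9.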

Additional observations from a re-analysis of the deposited data

How the results depend on the processing

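Of the 1190 alternative values computed for the 10 genes, 1085 kept their direction and side of the threshold. A planned quasi-likelihood count test was not run, because FPKM is not a count, and voom on recovered reads took its place. Genes called at P1 between genotypes (0) numbered 1 with a pseudocount of 0.1, on the TPM scale, rescaled without mitochondrial and the top 20 genes, with only the 2 groups in the fit or without wild-type P21 libraries 1 and 2, 3 with library weights, and 0 to 1 leaving out single libraries. At P21 (9) they numbered 14 with a pseudocount of 1, 5 without filter, 0 with only the 2 groups (841 at an unadjusted p under 0.05), 19 without trend and robust moderation, 2 without wild-type P21 libraries 1 and 2, 1 with voom, and 4 to 1814 leaving out single libraries. With age in wild type (6077) they numbered 9192 on the TPM scale (767 higher, 8425 lower, against 2917 and 3160), 3001 without wild-type P21 libraries 1 and 2, and 4268 to 7019 leaving out single libraries. In knockout (3388) they numbered 5798 on the TPM scale (635 higher, 5163 lower, against 1599 and 1789), 6773 with library weights, and 2085 to 4211 leaving out single libraries. For the difference of the knockout effects (0) leaving out single libraries gave 0 to 293.

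Signs of single genes turned as follows. On the TPM scale, log2 values became 0.35 for Kdr, 0.17 for Flt1 and 0.12 for Tie1 (knockout against wild type, P21), -0.95 for Pecam1, -0.66 for Kdr, -0.90 for Tek and -1.08 for Tie1 (age, wild type), -0.64 for Pecam1, -0.62 for Cdh5 and -0.38 for Emcn (age, knockout), and 0.32 for Pecam1, 0.42 for Flt1, 0.091 for Tek and 0.38 for Tie1 (difference of effects). Rescaled without mitochondrial and the top 20 genes, they became 0.19 for Kdr and 0.021 for Flt1 (P21), -0.31 for Pecam1, -0.032 for Kdr, -0.27 for Tek and -0.44 for Tie1 (age, wild type), -0.26 for Pecam1, -0.24 for Cdh5 and -0.011 for Emcn (age, knockout), and 0.055 for Pecam1, 0.18 for Flt1 and 0.12 for Tie1 (difference). These scalings divide each library by another total than the deposited one, and which total is right was not tested. Library weights gave 0.030 for Ly6e (P1), 0.19 for Kdr (P21) and 0.087 for Tie1 (age, knockout), voom 0.0012 for Kdr (P21) and 0.016 for Flt1 (difference), and leaving out wild-type P21 libraries 1 and 2 gave -0.25 (P21), 0.074 (age, wild type) and -0.029 (difference) for Cdh5. For these the cause was not tested.

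Leaving out single libraries, signs turned within these ranges: -0.15 to 0.37 for Ly6c1 and -0.097 to 0.032 for Ly6e at P1, and -0.25 to 0.32 for Cdh5, -0.22 to 0.10 for Kdr, -0.65 to 0.23 for Flt1 and -0.57 to 0.032 for Tie1 at P21. For age in wild type they were -0.049 to 0.41 for Pecam1, -0.39 to 0.076 for Cdh5, -0.036 to 0.48 for Tek and -0.24 to 0.37 for Tie1, and in knockout -0.10 to 0.18 for Pecam1, -0.14 to 0.31 for Cdh5 and -0.21 to 0.23 for Tie1. For the difference of effects they were -0.39 to 0.070 for Pecam1, -0.031 to 0.54 for Cdh5, -0.50 to 0.39 for Flt1 and -0.40 to 0.20 for Tie1. None of these values was called in the fit reported, and of them Tek with age in wild type was called without wild-type P21 library 2. The age call of Flt1 held in 19 of 24 alternatives in wild type and 16 of 24 in knockout, that of Kdr in knockout in 13 of 24 and that of Emcn in wild type in 23 of 24.

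The titles number the libraries of each group 1 to 3, but nothing says that a number marks a shared litter or day. Deviations from the group means of same-numbered libraries were correlated at -0.297 to 0.491, over 0.1 in 6 of 18 pairs. Libraries of different number were correlated at -0.475 to 0.342, over 0.1 in 14 of 36 pairs, so the numbers were not taken as a pairing. Between the genotypes at P21 alone, libraries 1, 2 and 3 were correlated with their namesakes at 0.026, 0.491 and 0.352. Whether these libraries share a litter or day was not tested. With the replicate number as a block, genes called numbered 7 between genotypes at P21, 5995 with age in wild type, 3249 with age in knockout, and 0 at P1 and for the difference, and none of the 10 genes changed its call. Depth limits the low genes most, with 92 reads of Ly6a in the poorest P1 library.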
